A study of Mus musculus with 9 samples.

Results

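The globin genes and the gene of the alpha globin chaperone, 10 mouse genes picked by name, were followed in bone marrow preparations. These were enriched for mature megakaryocytes (mMKs) and came from control mice and from mice exposed to ionizing radiation (IR). The 10 genes are Hba-a1, Hba-a2, Hba-x, Hbb-b1, Hbb-b2, Hbb-bs, Hbb-bt, Hbb-bh1, Hbb-y and Ahsp. Of these 10 genes, 9 had a probe under their own name and 8 were among the 29410 genes tested, out of 37325 gene names on the array. Hbb-bs had no probe of its own, and the Hba-x probe was not well above background on any of the 9 arrays, so it was not tested.

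The study asked how mMKs withstand IR and what becomes of the platelets they make. Gene expression was measured on 1-colour Agilent arrays with Cy3-labelled RNA, and each of the 3 groups had 3 arrays. In the IR groups, male mice had received 1 total-body exposure to 5 Gy of γ-rays and were sampled 1 or 3 days later (1 dpi and 3 dpi), whereas Ctrl mice were sham-irradiated. The mMKs were enriched from marrow after lysis of red cells by positive selection for CD41 and then for CD42d, and the arrays of a time point came from 3 independent experiments with different donors. The study worked with wild-type C57BL/6 mice, but the array labels give neither strain nor age. The series has no other treatment or genotype.

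Haemoglobin is a tetramer of alpha-type and beta-type globin chains, each holding a haem group, and is made in very large amounts by maturing red cells. Ahsp encodes a chaperone that binds free alpha globin and keeps it soluble until a beta chain takes it up. Adult mice make alpha chains from Hba-a1 and Hba-a2 and beta chains from a pair of genes named Hbb-bs and Hbb-bt in the Hbb-s haplotype of C57BL/6 or Hbb-b1 and Hbb-b2 in the Hbb-d haplotype, while Hba-x, Hbb-bh1 and Hbb-y are the embryonic genes.

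Each level is the log2 of a spot's intensity after subtraction of the array's own 75th percentile, so that a gene at that percentile has the value 0. The 1 dpi arrays were dimmer as a whole, with the 75th percentile at 9.33, 9.45 and 9.43 log2 units, against 10.03, 10.62 and 10.66 in Ctrl and 10.37, 10.55 and 10.53 at 3 dpi. On the 9 arrays 69.1% to 81.8% of the spots exceeded background clearly by the scanner software's own measure (well above background), and 0 were saturated. A gene was called higher or lower at a Benjamini-Hochberg adjusted p under 0.05 in limma and a change of at least 2-fold. With this scaling the median of all genes was 0.25 at 1 dpi against Ctrl, 0.11 at 3 dpi against Ctrl and -0.11 at 3 dpi against 1 dpi, and changes relative to that median are given where they matter. With 3 arrays a group, the number of arrays limits the precision of every value.

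At 1 dpi against Ctrl, 4 of the 8 members tested were called, beside 15.2% of all genes tested. Hba-a1, Hba-a2 and Hbb-b1 were higher, beside 12.3% of all genes, and Ahsp was lower, beside 2.87%. At 3 dpi against Ctrl, 7 of the 8 were called, beside 8.8% of all genes. The 6 lower members were Hba-a1, Hba-a2, Hbb-b1, Hbb-b2, Hbb-bt and Ahsp, beside 1.82% of all genes called lower, and the 1 higher member was Hbb-y, beside 6.98%. At 3 dpi against 1 dpi, 7 members were called, beside 8.8% of all genes. Here the 5 adult globin names were lower, beside 4.82% of all genes, and Ahsp and Hbb-y were higher, beside 3.97%. The alpha probes overlap and the adult beta probes may share targets, so these 5 are not 5 separate measurements. Both comparisons with Ctrl share the same 3 Ctrl arrays, and Hbb-y passed the filter on dim probes only through its 3 dpi arrays, so a difference was built into its choice. Without Hbb-y, 6 of 7 members were called in each of the comparisons of 3 dpi. Over the 44300 probes kept, 14.6%, 8.44% and 8.78% were called in the 3 comparisons.

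Of all genes called at 1 dpi against Ctrl, 81.1% were higher with the 75th percentile scaling, but 48.9% with array median scaling, 56.3% with quantile normalization, 68.8% with normexp background correction and quantile normalization, and 49.7% in the deposited log2 table. At 3 dpi against Ctrl the share was 79.4% and 66.7% in the deposited table. At 3 dpi against 1 dpi the share was 45.2%, and it was 67.2%, 62.9%, 33.2% and 62.6% with array median scaling, quantile normalization, normexp with the 75th percentile and the deposited table. The arrays hold RNA of whole preparations, so fewer cells that carry globin RNA and less globin RNA per cell cannot be told apart.

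**Figure D1:**
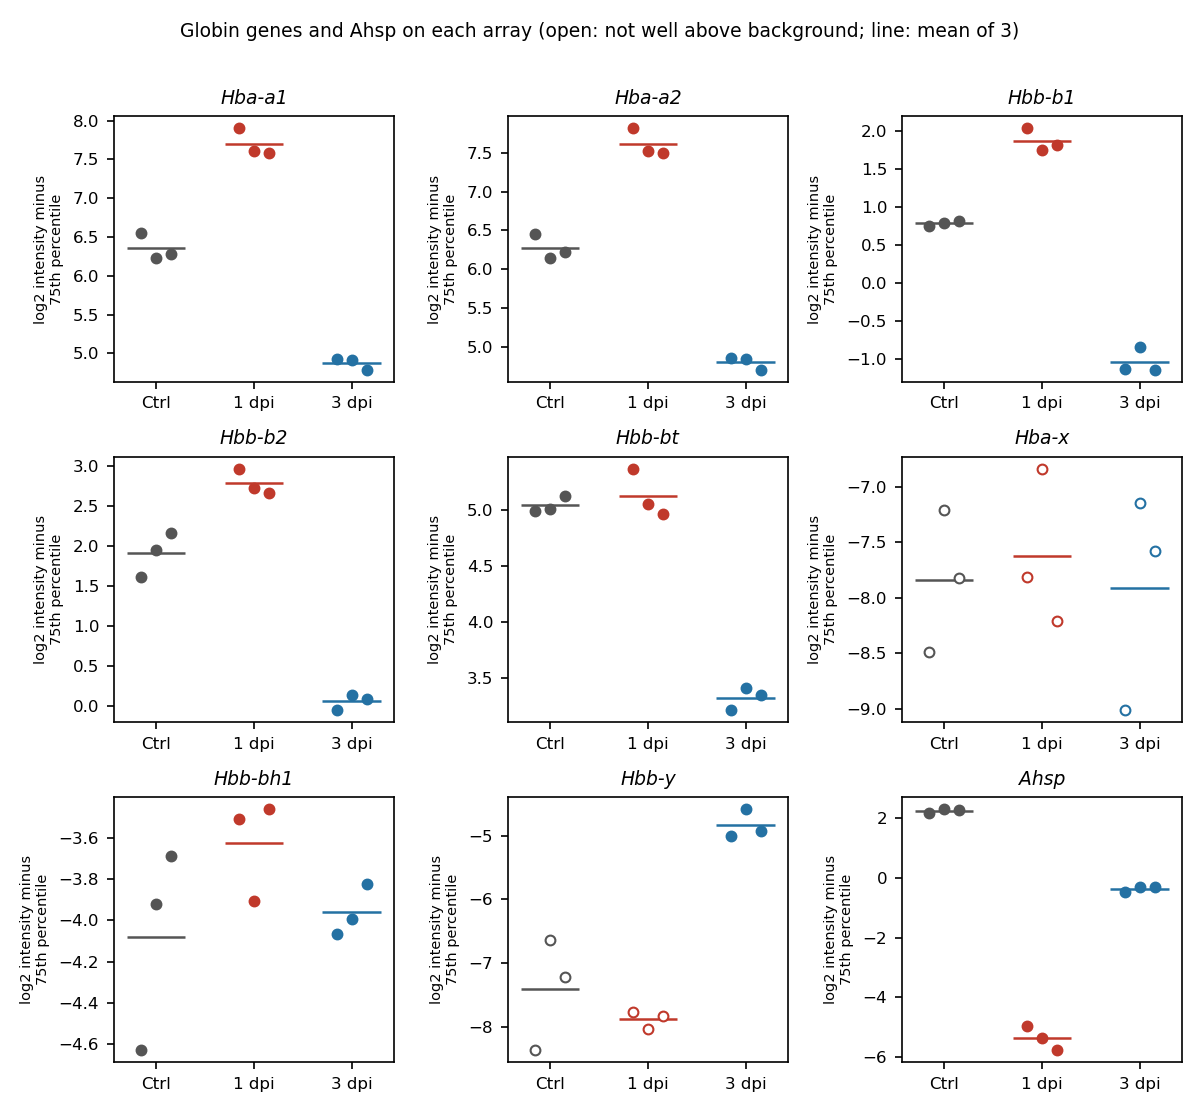
Log2 intensity minus the 75th percentile of the array (vertical axis) of the 9 members with a probe, 1 panel each, on the 9 arrays grouped as Ctrl, 1 dpi and 3 dpi; open points are not well above background and the line is the group mean. The alpha genes and Hbb-b1 were higher at 1 dpi than in Ctrl and lower at 3 dpi, Hbb-bt was lower at 3 dpi with a 1 dpi change that is above 0 here and below 0 with array median scaling, quantile normalization and the deposited table, and Ahsp was lowest at 1 dpi.

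The 9 genes with a probe had 11 probes of 60 bases on 38 spots. Of the 11, 5 also listed a transcript of another member in the array annotation, and 0 probes under other names listed a member. The brightest Hba-a1 probe, at chr11:32184427-32184486 in mm9, and the Hba-a2 probe, at chr11:32197245-32197304, share 59 bases with 0 mismatches at a shift of 1 base, so these 2 alpha probes are not separate measurements. The Hbb-b1 probe, at chr7:110976379-110976438 on the minus strand, also listed Hbb-bs, and its first 46 bases match the start of the Hbb-bs transcript with 0 mismatches, whereas 45 bases set against Hbb-bt had 7 mismatches. The Hbb-b2 probe also listed Hbb-b1. Values given under Hbb-b1 and Hbb-b2 may therefore hold signal from Hbb-bs, from Hbb-bt or from each other's transcripts. In mice of the Hbb-s haplotype the Hbb-b2 and Hbb-bt probes could read 1 gene, and the labels give no strain, so differences between these probes are not differences between known genes. The probes of Hbb-bt, Hbb-bh1, Hbb-y and Ahsp listed no other member.

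Probes that lie in 1 reading frame without a stop are shown, since the results turn on what these probes capture. They are those of the chaperone, the alpha genes, an adult beta gene and the embryonic gene Hbb-y. The alpha probe shown is the second and dimmer one of Hba-a1, at chr11:32183955-32184014 in mm9, which listed both alpha genes.
Ahsp: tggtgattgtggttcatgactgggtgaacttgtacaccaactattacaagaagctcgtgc
Hba-a1: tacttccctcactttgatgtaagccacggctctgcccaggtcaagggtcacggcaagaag
Hbb-b2: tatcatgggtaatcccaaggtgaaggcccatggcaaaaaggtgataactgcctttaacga
Hbb-y: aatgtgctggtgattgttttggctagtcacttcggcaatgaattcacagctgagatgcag

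The alpha globin genes, which supply the chain that Ahsp binds, moved in opposite directions at the 2 times. The brightest probe of Hba-a1 was at 6.55, 6.23 and 6.29 in Ctrl, at 7.90, 7.61 and 7.58 at 1 dpi, and at 4.93, 4.91 and 4.79 at 3 dpi. The 3 groups did not overlap, with 1 dpi highest and 3 dpi lowest, but lack of overlap was common, in 67.5% of all genes at 1 dpi against Ctrl, 47% at 3 dpi against Ctrl and 65.5% at 3 dpi against 1 dpi. Against Ctrl, Hba-a1 rose by 1.34 ± 0.12 (log2, standard error, n = 3 arrays a group) at 1 dpi, which is 2.53-fold (adjusted p = 8.54e-05), and relative to the median of all genes the change was 1.09. This rise remained above 0 under each scaling tried but lost the call with quantile normalization (0.70), with normexp and quantile normalization (0.69) and in the deposited table (0.69). Unscaled intensities of this probe were 98540 to 126100 in Ctrl and 131900 to 153400 at 1 dpi. In the deposited table Hba-a1 has the same value, 17.29, on 1 dpi replicates 2 and 3, and Hba-a2 has 17.19 on both. For Hba-a1 that table was close to quantile normalization (0.69 and 0.70), so the 2 may not be separate alternatives.

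At 3 dpi Hba-a1 fell by 1.48 against Ctrl (2.79-fold, adjusted p = 6.04e-05), and against 1 dpi it fell by 2.82 (7.06-fold, adjusted p = 8.68e-06). The second Hba-a1 probe gave the same order, with group means of 4.64 in Ctrl, 5.67 at 1 dpi and 3.14 at 3 dpi, and changes of 1.03 (adjusted p = 0.000119 over all probes), -1.49 and -2.52. Without scaling, the intensities of this second probe overlapped between Ctrl (27360 to 40860) and 1 dpi (33180 to 36220). Hba-a2, the other adult alpha gene, was at 6.46, 6.14 and 6.22 in Ctrl, at 7.81, 7.52 and 7.50 at 1 dpi, and at 4.86, 4.84 and 4.71 at 3 dpi. Its changes of 1.34, -1.47 and -2.81 repeat those of the overlapping Hba-a1 probe and are no second measurement. In order of level, both genes ran from 1 dpi through Ctrl to 3 dpi, and no neighbouring groups overlapped.

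Among the adult beta globin genes, which supply the other chain of adult haemoglobin, the 3 probes were called lower at 3 dpi, against Ctrl and against 1 dpi, and 1 was called at 1 dpi. Hbb-b1 was at 0.75, 0.79 and 0.81 in Ctrl, at 2.03, 1.74 and 1.81 at 1 dpi, and at -1.13, -0.84 and -1.14 at 3 dpi, where the groups did not overlap, like those of most genes in the comparisons with 1 dpi. It rose by 1.08 ± 0.11 at 1 dpi (2.11-fold, adjusted p = 0.000143; relative to the median of all genes 0.83). This change stayed above 0 under every scaling but lost the call with array median scaling (0.76), with normexp and the 75th percentile (0.93) and without 1 dpi replicate 1 (0.99). Unscaled Hbb-b1 intensities overlapped, at 1763 to 2829 in Ctrl and 2340 to 2623 at 1 dpi, so the rise is one relative to the dimmer 1 dpi arrays. At 3 dpi Hbb-b1 fell by 1.82 against Ctrl (3.52-fold, adjusted p = 1.15e-05) and by 2.90 against 1 dpi (7.44-fold, adjusted p = 6.37e-06).

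The Hbb-b2 probe was at 1.61, 1.96 and 2.16 in Ctrl, at 2.97, 2.73 and 2.67 at 1 dpi, and at -0.05, 0.14 and 0.09 at 3 dpi. Its groups did not overlap, as was common among all genes, and the 1 dpi change of 0.88 ± 0.15 (1.84-fold, adjusted p = 0.00188) was under the minimum fold. It was 0.56 with array median scaling, and it was called only without Ctrl replicate 3 among the arrays left out in turn (1.01). Unscaled Hbb-b2 intensities overlapped, at 3195 to 7230 in Ctrl and 4380 to 5031 at 1 dpi. At 3 dpi Hbb-b2 fell by 1.85 against Ctrl (3.61-fold, adjusted p = 5.98e-05) and by 2.73 against 1 dpi (6.64-fold, adjusted p = 1.88e-05). Both probes ran in the order 1 dpi, Ctrl, 3 dpi.

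Hbb-bt, the adult beta gene whose probe listed no other member, was at 4.99, 5.01 and 5.13 in Ctrl, at 5.37, 5.06 and 4.96 at 1 dpi, and at 3.21, 3.41 and 3.34 at 3 dpi. The Ctrl and 1 dpi arrays overlapped, and their means of 5.05 ± 0.07 and 5.13 ± 0.21 (SD, n = 3) did not differ beyond their spread. The 1 dpi change was 0.08 ± 0.11 (adjusted p = 0.543) and -0.16 relative to the median of all genes, and its sign turned with array median scaling (-0.23), quantile normalization (-0.23), normexp and quantile normalization (-0.21) and in the deposited table (-0.23). Before scaling, the Hbb-bt intensities were 33430 to 56620 in Ctrl and 21490 to 26600 at 1 dpi. At 3 dpi Hbb-bt fell by 1.72 against Ctrl (3.30-fold, adjusted p = 2.14e-05) and by 1.81 against 1 dpi (adjusted p = 3.54e-05).

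Within an array, the adult globin genes were also set against Hbb-bt, a comparison added after the values were seen. From Ctrl to 1 dpi, the difference of Hbb-b1 minus Hbb-bt changed by 1.00, that of Hbb-b2 minus Hbb-bt by 0.80 and that of Hba-a1 minus Hbb-bt by 1.26, each with an exact two-sided permutation p of 0.1, the smallest that 3 against 3 arrays can give. With quantile normalization these changes were 1.35, 1.12 and 0.93. From Ctrl to 3 dpi the same differences changed by -0.09 (exact p = 0.2), -0.13 (exact p = 0.4) and 0.24 (exact p = 0.3), and the signs of the first 2 turned with quantile normalization (0.10 and 0.04). From 1 to 3 dpi they changed by -1.09, -0.93 and -1.01, each with an exact p of 0.1, and the last was -0.67 with quantile normalization. With 3 against 3 arrays a larger p does not show equal change. A difference within an array shows unequal change of the signals and does not show which of them stayed level.

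**Figure D2:**
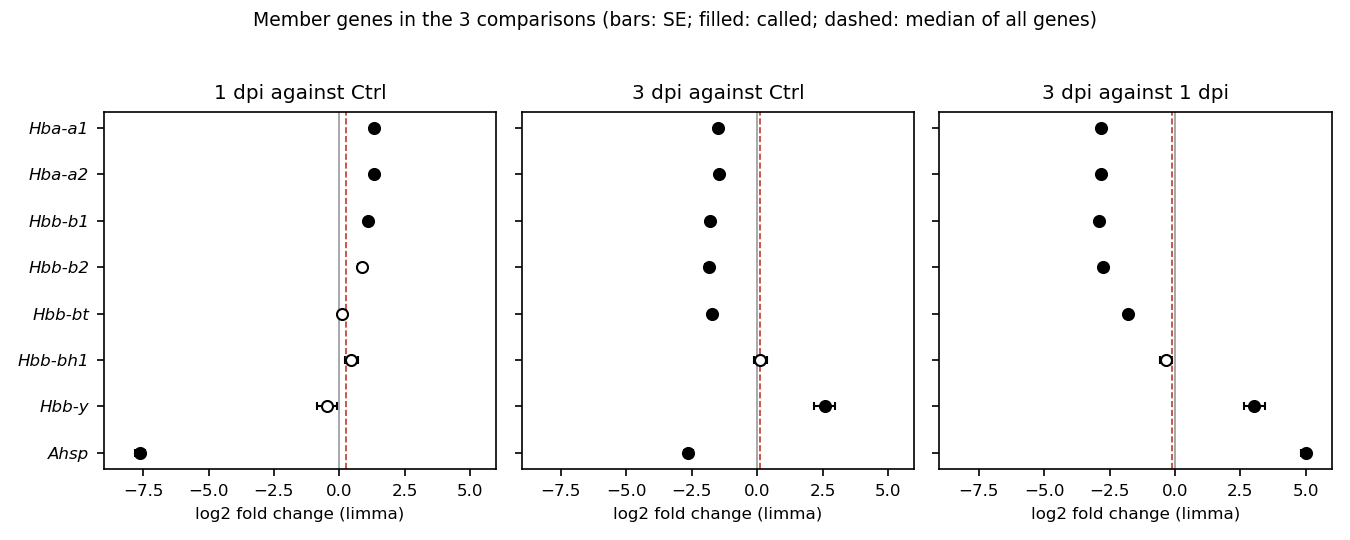
Log2 fold change of each tested member (horizontal axis) in the 3 comparisons, 1 panel each, with bars for the standard error, filled points for called changes and a dashed line at the median of all genes. The adult globin genes lie below the line at 3 dpi against Ctrl and against 1 dpi, Hbb-bt lies near 0 at 1 dpi against Ctrl where its sign turns with other scalings, and Ahsp is the lowest point at 1 dpi against Ctrl and the highest at 3 dpi against 1 dpi.

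The embryonic genes were dim. Hbb-bh1, an embryonic beta-type gene, was at -4.63, -3.92 and -3.68 in Ctrl, at -3.51, -3.91 and -3.46 at 1 dpi, and at -4.06, -3.99 and -3.82 at 3 dpi. All 9 values were well above background, all 3 groups overlapped, and no change was called, with 0.46 (adjusted p = 0.139), 0.12 (adjusted p = 0.727) and -0.34 (adjusted p = 0.294). The sign of the small 3 dpi change against Ctrl turned with array median scaling, quantile normalization, normexp with quantile normalization and the slide as a block. A second Hbb-bh1 probe was called higher at 1 dpi over all probes (1.27 ± 0.44, adjusted p = 0.0386, beside 0.46 ± 0.24 for the first), with 2 of 3 Ctrl arrays well above background, and the 2 probes were not tested against each other.

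Hbb-y, the embryonic epsilon-type gene, was not well above background on any Ctrl array (-8.37, -6.64 and -7.22) or on any 1 dpi array (-7.77, -8.03 and -7.83), and it was well above background on the 3 arrays of 3 dpi (-5.00, -4.58 and -4.93). Its unscaled intensity was 3.17 to 15.8 in Ctrl, 2.67 to 3.03 at 1 dpi and 41.3 to 62.6 at 3 dpi, so the gene stayed dim when measured. A group without an array well above background has only an upper bound, taken on each array as the probe's own value or, if higher, as the dimmest signal that any probe well above background had there. By that bound Hbb-y was at least 3.33-fold higher at 3 dpi than in Ctrl and at least 1.90-fold higher than at 1 dpi. Its calls are no independent test, since the filter let the gene in only through its 3 dpi arrays, and no p is given. The call was lost with normexp and quantile normalization (0.50 against Ctrl) and with normexp and the 75th percentile (0.59), and against 1 dpi the sign turned with the latter (-0.08). Ctrl and 1 dpi overlapped, and no fold is given between them. Quantile normalization and the deposited table called the 1 dpi change lower (-1.07 in both), and its sign turned with normexp and the 75th percentile (0.66). Neither group had an array well above background, so these values are no measured change.

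The embryonic alpha-type gene Hba-x had intensities of 2.32 to 10.6, with 0 of 9 arrays well above background, and no change is given for it.

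Ahsp, the chaperone of alpha globin, changed in a different order from the globin genes. It was at 2.19, 2.30 and 2.28 in Ctrl, at -4.96, -5.35 and -5.77 at 1 dpi, and at -0.49, -0.31 and -0.32 at 3 dpi, well above background on all 9 arrays. The 3 groups were far apart, in the order Ctrl, 3 dpi, 1 dpi, and their means were 2.26 ± 0.06, -0.37 ± 0.10 and -5.36 ± 0.41 (SD, n = 3). Unscaled intensities were 4782 to 7832 in Ctrl, 12.6 to 20.7 at 1 dpi and 942 to 1214 at 3 dpi. The 1 dpi change of -7.62 ± 0.18 (adjusted p = 2.51e-07) was -7.86 relative to the median of all genes. It was -5.92 with normexp and quantile normalization and -5.44 with normexp and the 75th percentile.

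At 3 dpi Ahsp was still lower than in Ctrl, by -2.63 ± 0.18 on the log2 scale (6.18-fold, adjusted p = 2.82e-05), and over the settings tried this change ran from -2.75 to -2.53. From 1 to 3 dpi it rose 31.7-fold, and the log2 change of that rise was 3.39 with normexp and quantile normalization and 2.90 with normexp and the 75th percentile. Every adult globin gene with a probe under its own name fell in that same interval.

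The change of Ahsp was then set against that of each adult globin gene within each array, a difference that adding a constant to an array leaves as it is, though quantile normalization and background correction can move it. From Ctrl to 1 dpi the difference of Ahsp minus globin changed by -8.96 for Hba-a1, -8.69 for Hbb-b1, -8.49 for Hbb-b2 and -7.70 for Hbb-bt, and with quantile normalization by -8.60, -9.02, -8.79 and -7.67. From Ctrl to 3 dpi the changes were smaller, at -1.15, -0.81, -0.77 and -0.91 in the same order. From 1 to 3 dpi they were 7.81, 7.88, 7.72 and 6.79. With Hba-a2 included, each of the 15 pairs and comparisons gave an exact two-sided permutation p of 0.1, unadjusted and adjusted over the 15, which is the smallest possible with 3 against 3 arrays. That p and the full separation of the arrays are the same fact, so the separation adds nothing to it. Separation was common, in 67.5%, 47% and 65.5% of single genes in the 3 comparisons, and its share among gene pairs was not computed. The 15 share Ahsp and the overlapping alpha probes, so they are not separate measurements. No direction turned in the settings tried.

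**Figure D3:**
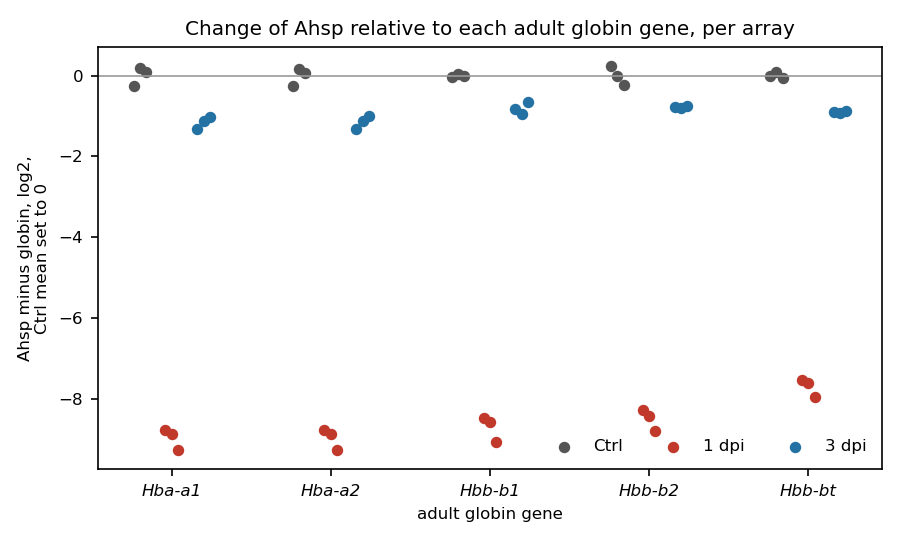
Difference on each array between the log2 values of Ahsp and of each adult globin gene (vertical axis, mean of Ctrl set to 0) for Ctrl, 1 dpi and 3 dpi; each point is an array. On average the 1 dpi points lie at -8.96 to -7.70 log2 units and the 3 dpi points at -1.16 to -0.77, with no direction turned by another scaling.

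Promoters are shown for the adult genes Hba-a1, Hbb-bs and Hbb-bt and the embryonic Hbb-y, so that both kinds can be read side by side, although Hbb-bs had no probe of its own. The sequences are the 150 bases before the RefSeq start site in GRCm38.p6, and 6 of the 10 members had an entry. Capitals mark, on either strand, CACCC as bound by Klf1, the letters CCAAT of the CAAT box, GATAA as bound by Gata1, and ATATAA as a TATA box. On the opposite strand CCAAT reads ATTGG.
Hba-a1: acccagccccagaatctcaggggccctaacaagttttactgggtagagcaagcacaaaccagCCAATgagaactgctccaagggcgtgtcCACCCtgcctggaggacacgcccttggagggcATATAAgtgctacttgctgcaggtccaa
Hbb-bs: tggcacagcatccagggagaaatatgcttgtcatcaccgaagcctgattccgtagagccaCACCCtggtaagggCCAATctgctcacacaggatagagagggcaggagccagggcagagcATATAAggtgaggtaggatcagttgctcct
Hbb-bt: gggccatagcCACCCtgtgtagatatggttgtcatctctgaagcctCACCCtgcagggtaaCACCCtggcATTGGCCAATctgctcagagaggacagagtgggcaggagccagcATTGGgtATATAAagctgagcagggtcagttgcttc
Hbb-y: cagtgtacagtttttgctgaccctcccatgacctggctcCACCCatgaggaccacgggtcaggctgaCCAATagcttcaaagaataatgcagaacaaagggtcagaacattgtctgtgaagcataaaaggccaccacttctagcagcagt

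These windows lie at chr11:32283522-32283671 on the plus strand for Hba-a1, and on the minus strand at chr7:103827929-103828078 for Hbb-bs, chr7:103813924-103814073 for Hbb-bt and chr7:103853208-103853357 for Hbb-y. CACCC lay 60 bases before the start site in Hba-a1, 90 in Hbb-bs, 140, 104 and 89 in Hbb-bt and 111 in Hbb-y. CCAAT lay at 88, at 76, at 80, 75 and 36, and at 83 in the same order, and in Hbb-bt the matches at 80 and 75 adjoin on opposite strands as ATTGGCCAAT. ATATAA lay at 28, 30 and 29 in the 3 adult genes and was not among the letters of the Hbb-y window, and GATAA was in 0 of these 4 windows. Of 32851 promoters of this length, 37.4% held CACCC, 24.5% CCAAT, 13.3% GATAA and 5.35% ATATAA. These matches are a description of letters only.

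The genes with the profile nearest to that of Ahsp over the 9 arrays, by root mean square difference after each gene was centred on its own mean, were Rhd (0.65), Kel (1.07), Slc38a5 (1.14), Gm19783 (1.39) and a transcript named only by its position (1.43). Rhd and Kel encode blood group proteins of the red-cell membrane, and Slc38a5 encodes an amino acid transporter. Their Pearson correlations with Ahsp over the 9 arrays were 0.99, 0.99, 0.98, 0.90 and 0.89, over points that share the 3 groups. The genes were picked for nearness on these arrays, so the correlations are a description and no test. Kel, Gm19783 and the position-named transcript were well above background on 0 of 3 arrays at 1 dpi, so their distances and correlations rest on values that are only bounds there. The latter 2 were at 0.23 and 0.44 at 3 dpi against Ctrl, beside -2.63 for Ahsp, with signs that turned with the slide as a fixed block. Rhd changed by -6.51 at 1 dpi against Ctrl, -2.82 at 3 dpi against Ctrl and 3.70 at 3 dpi against 1 dpi, with 2 of 3 arrays well above background at 1 dpi. Its probes disagreed, since the first of these changes was -4.56 as the mean of its probes, and a probe well above background on all 9 arrays gave -2.60 and 0.37 at 1 dpi and from 1 to 3 dpi. Kel was not well above background at 1 dpi and was at least 33.8-fold lower there than in Ctrl, and its rise from 1 to 3 dpi (at least 5.41-fold) lost the call with normexp and the 75th percentile (0.59). With that setting the 1 dpi changes of Kel and Slc38a5 were -2.80 and -3.16.

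Nearest to Hbb-bt, taken as the adult beta gene of highest signal, were Slc15a2 (0.18), Robo3 (0.20), Dusp2 (0.21), Spag6 (0.24) and Gdap6 (0.24), with correlations of 0.99, 0.99, 0.98, 0.96 and 0.98. Slc15a2 encodes a peptide transporter, Dusp2 a phosphatase of MAP kinases and Robo3 a guidance receptor of neurons. Like Hbb-bt, these 5 genes were lower at 3 dpi than in Ctrl, from -1.96 for Slc15a2 to -1.41 for Gdap6. Their 1 dpi changes lay between -0.06 and 0.21, and the sign turned with at least 1 other scaling for Slc15a2, Robo3, Spag6 and Gdap6. The 3 dpi call was lost for Slc15a2 as the mean of its probes (-0.97), for Spag6 in the deposited table (-0.33) and, with both normexp settings, for Spag6 and Gdap6. In the deposited table Slc15a2 was called higher at 1 dpi (1.52).

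**Figure D4:**
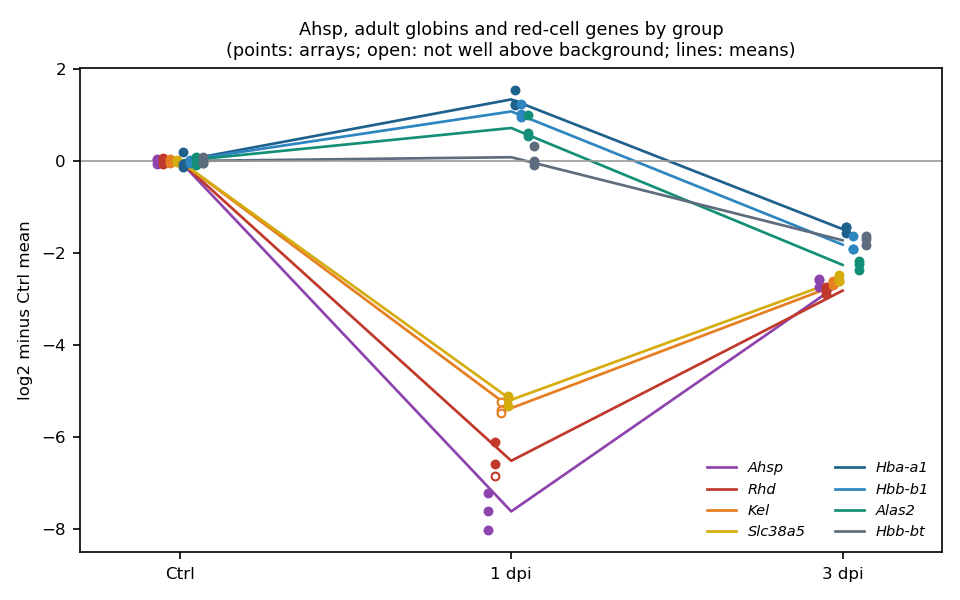
Log2 value on each array minus the gene's Ctrl mean (vertical axis) for Ahsp, Rhd, Kel, Slc38a5, Hba-a1, Hbb-b1, Alas2 and Hbb-bt in Ctrl, at 1 dpi and at 3 dpi (horizontal axis); points are arrays, open where not well above background, and lines join group means. Ahsp, Rhd, Kel and Slc38a5 are lowest at 1 dpi, and the 3 globin genes and Alas2 are lowest at 3 dpi, while the small 1 dpi change of Hbb-bt turns sign with other scalings.

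Counts in this and the later lists are to be read beside the shares of all genes tested. At 1 dpi against Ctrl 12.3% were called higher and 2.87% lower, and at 3 dpi against Ctrl 6.98% and 1.82%. From 1 to 3 dpi the shares were 3.97% and 4.82%, and a count near its share is no result about a list. Haem synthesis, which supplies the haem that globin chains carry, was measured by 11 genes. None was called at 1 dpi against Ctrl by limma or by the methods' t-test, although 8 of 11 had an unadjusted limma p under 0.05. At 3 dpi 1 of 11 was called, lower, both against Ctrl and against 1 dpi, and it was Alas2, the first enzyme of the pathway in red cells. Alas2 changed by 0.72 at 1 dpi (adjusted p = 0.00201, not called, and 0.40 with array median scaling), -2.26 at 3 dpi against Ctrl (adjusted p = 7.8e-06) and -2.98 at 3 dpi against 1 dpi, beside -1.48 and -2.82 for Hba-a1 in the latter comparisons. Uros and Cpox, enzymes of middle and late steps, were at -0.98 and -0.87 at 1 dpi and were called lower there with array median scaling (-1.29 and -1.19) and in the deposited table (-1.21 and -1.89).

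Of 14 regulators of globin genes, 3 were called lower at 1 dpi against Ctrl, 5 at 3 dpi against Ctrl and 0 were called higher in either. Between 3 and 1 dpi limma and the methods' t-test called 0 of 14, with 9 at an unadjusted limma p under 0.05, but in the deposited table Klf1 was called higher (2.21) and Zfpm1 and Myb lower, the last named after its value was seen. Sox6, a repressor of embryonic globin genes, was at -2.79 and -2.53 in the comparisons with Ctrl, the former -1.79 with normexp and the 75th percentile. Klf1, an activator of adult beta globin, was at -2.09 and -1.69 (the former -4.36 in the deposited table), and Zfpm1, a partner of Gata1, was at -1.33 and -1.65. The 1 dpi call of Zfpm1 was lost as the mean of its probes (-0.95) and in the deposited table (-0.59). Gfi1b (-1.19) and Tal1 (-1.08), named after their values were seen, made up the 5 at 3 dpi, and Gata1 was at -0.67 and -0.80, not called. The 14 genes were well above background on all 9 arrays.

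Of 17 genes of the red-cell membrane tested, 10 were lower and 1 was higher at 1 dpi against Ctrl, 10 were lower and 1 higher at 3 dpi against Ctrl, and 6 were higher and 1 lower at 3 dpi against 1 dpi. Slc4a1, the anion exchanger band 3, was at -3.78, -2.21 and 1.58 in the 3 comparisons. Epb42, protein 4.2, was at least 4.06-fold lower at 1 dpi than in Ctrl. This call was lost with normexp and the 75th percentile (-0.49), and from 1 to 3 dpi, where Epb42 passed the call rule as higher, its bound at 1 dpi shows no rise and that setting turned the sign (-0.66). Dmtn (1.53 at 1 dpi, and the 1 lower from 1 to 3 dpi) and Ank1 (1.05 at 3 dpi), named after their values were seen, were the higher genes against Ctrl, and both turned sign in the deposited table, where 15 of 17 were lower in each of the comparisons with Ctrl. With normexp and quantile normalization 8 were lower at 1 dpi and 8 at 3 dpi, and with normexp and the 75th percentile 6 and 8, where the sign of Sptb, also named after its value was seen, turned at 1 dpi. From 1 to 3 dpi these settings called 3 and 2 higher. The number of the 17 genes well above background was 17 on each Ctrl array, 10 to 12 at 1 dpi and 16 to 17 at 3 dpi.

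Of 16 genes of red-cell maturation, 6 were lower and 1 was higher at 1 dpi, 4 were lower at 3 dpi against Ctrl, and 2 were higher and 1 lower at 3 dpi against 1 dpi. The 4 at 3 dpi were Slc38a5, Car1, Car2 and Trim10, and between the times Slc38a5 and Epor were higher and Hemgn was lower. The 3 dpi call of Trim10 was lost in 2 of 24 settings, over which its change ran from -1.89 to -0.89. Slc38a5 was at -5.19, -2.56 and 2.63, and the last of these lost the call with normexp and the 75th percentile (0.91). Car1, a carbonic anhydrase of red cells, was at -3.31 and -2.81 against Ctrl, and the former was -6.51 in the deposited table. Trim10 was at least 4.70-fold lower at 1 dpi, a call lost with normexp and the 75th percentile (-0.45). Tfrc, the receptor that brings iron in for haem, was at -1.02 at 1 dpi, a call lost under several settings and -0.44 as the mean of its probes. The higher gene at 1 dpi was Hemgn (1.45), whose sign turned in the deposited table. Hemgn, Epor and Car2 were named after their values were seen.

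The globin family outside the members and the clearance of haemoglobin gave other patterns. Of 10 other globin family genes listed, 5 were tested and 1 was called in each comparison, beside 15.2%, 8.8% and 8.8% of all genes. It was the higher Cygb, or cytoglobin, at 1.49, 2.66 and 1.17. The first call was lost with normexp and quantile normalization (0.85) and the last with normexp and the 75th percentile (0.92). Adgb and Ngb were not called. Of 12 genes of haemoglobin and haem clearance, 3 were higher and 1 lower at 1 dpi against Ctrl, beside 12.3% and 2.87% of all genes. At 3 dpi 3 were higher against Ctrl and 3 against 1 dpi, beside 6.98% and 3.97%. Ftl1, Spic and Slc40a1, named after their values were seen, made up these counts with Hmox1, Lrp1 and Cd163, and the 1 dpi call of Ftl1 was lost with every other scaling. Hmox1, the enzyme that breaks down haem, was at 1.61 and 1.31 against Ctrl. The former was 2.44 in the deposited table, which called Hmox1 lower from 1 to 3 dpi (-1.05), and the call of the latter was lost with the methods' t-test after Benjamini-Hochberg adjustment (adjusted p = 0.0602). Lrp1, the receptor for haem bound to haemopexin, was at 1.38 and 2.20, and Cd163, the receptor for haemoglobin bound to haptoglobin, was at -2.07, 0.74 and 2.81 in the 3 comparisons.

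The mMK label was checked against 16 megakaryocyte markers, all well above background on all 9 arrays. Neither limma nor the methods' t-test called any of them in a comparison, while 8, 8 and 11 of 16 had an unadjusted limma p under 0.05 in the 3 comparisons. With array median scaling limma called Gp1ba lower at 1 dpi (-1.13) and Gp1ba and Gp6 higher from 1 to 3 dpi, and in the deposited table Vwf was lower at 3 dpi against Ctrl, where Gp6 and Vwf were named after their values were seen. Gp1ba and Gp5, parts of a platelet receptor, were at -0.82 and -0.54 at 1 dpi. Pf4, a platelet chemokine, ran from 6.02 to 6.04 in Ctrl, 6.05 to 6.23 at 1 dpi and 6.02 to 6.05 at 3 dpi, and its small 1 dpi change of 0.09 turned sign with 4 other scalings, to -0.34 with quantile normalization. Itga2b, which encodes the selected CD41, was at 0.69 at 1 dpi (not called). Megakaryocyte markers were thus present on each array, and so were those of other marrow cells. The mean level of the megakaryocyte list was 1.06 to 1.41, beside 6.18 to 6.84 for the neutrophil list. Mpo, a neutrophil marker, at 7.64 to 8.72 lay above Pf4 on every array. The markers therefore do not show preparations of megakaryocytes alone, and the share of each cell type was not measured.

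Of 10 B-cell precursor markers, 9 were lower at 1 dpi and 9 at 3 dpi against Ctrl (8 and 7 with normexp and quantile normalization, 6 and 8 with normexp and the 75th percentile). From 1 to 3 dpi their median change was 0.07, and -0.13 with normexp and the 75th percentile, and 3 were called higher (Vpreb3, Igll1 and Ebf1), of which Igll1 and Ebf1 lost the call with both normexp settings. Rag1 passed the call rule as lower there and counts among the 9 against Ctrl, but it was well above background on 0 arrays at 1 and 3 dpi, so no change between these times is given. Their mean level was -0.65, -0.73 and -0.75 on the Ctrl arrays, -3.36, -3.37 and -3.56 at 1 dpi and -3.23, -3.22 and -3.25 at 3 dpi. Cd79b, with the highest probe signal of the list, was at 3.44 to 3.61 in Ctrl, 2.20 to 2.27 at 1 dpi and 1.99 to 2.04 at 3 dpi. At 1 dpi Vpreb3 changed by -5.42 and Igll1 by -4.70 (-2.97 with normexp and the 75th percentile). Proliferation genes, 14 in all, had 0 called by limma or by the methods' t-test, with 8, 3 and 11 at an unadjusted limma p under 0.05 in the 3 comparisons. At 1 dpi Aurkb was at -0.82, Ccnb2 at -0.62 and Mki67 at -0.52, and with array median scaling Aurkb was called lower there (-1.13) and higher from 1 to 3 dpi (1.01).

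Neutrophil markers were called higher at 1 dpi in 2 of 12, S100a8 (1.14) and S100a9 (1.02), a count near the 12.3% of all genes called higher. Both calls were lost with array median scaling, both quantile settings and the deposited table, where S100a9 was at 0.22. At 3 dpi 0 of 12 were called against Ctrl or against 1 dpi by limma or the methods' t-test, with 3 and 11 at an unadjusted limma p under 0.05. Their mean level was 6.20, 6.27 and 6.25 in Ctrl, 6.84, 6.77 and 6.77 at 1 dpi and 6.28, 6.18 and 6.24 at 3 dpi, and Mpo, with the highest probe signal, was at 7.67 to 7.76, 8.58 to 8.72 and 7.64 to 7.84. The 12 markers were well above background on all 9 arrays.

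Macrophage markers were called higher in 3 of 11 (C1qb, Cd68 and C1qc, the last not as the mean of its probes, at 0.95) and lower in 1 (Cd163) at 1 dpi, higher in 8 at 3 dpi against Ctrl and higher in 6 at 3 dpi against 1 dpi. Among the 6, C1qb was at the 2-fold limit and lost the call with 3 of the 5 other scalings, and C1qc, just under the limit, gained it with 4. Their mean level was 1.62, 1.50 and 1.46 in Ctrl, 1.73, 1.65 and 1.75 at 1 dpi and 3.09, 3.13 and 3.12 at 3 dpi, with Csf1r, the probe of highest signal, at 3.67 to 3.93, 4.13 to 4.25 and 4.79 to 4.92. Cd163 stands in this list and in that of haem clearance, and Cd68, Ebf1, Rag1, Col3a1, Dcn and Lum were named after their values were seen. Stromal markers were higher in 7 of 10 at 1 dpi, 6 at 3 dpi against Ctrl and 4 at 3 dpi against 1 dpi (Col1a2, Col3a1, Dcn and Lum). Their mean level was -1.61, -1.34 and -1.22 in Ctrl, 0.12, -0.13 and 0.09 at 1 dpi and 0.95, 0.74 and 0.80 at 3 dpi, with Cxcl12, the probe of highest signal, at 1.59 to 1.94, 4.32 to 4.51 and 5.15 to 5.26. Against Ctrl, Cxcl12 was at 2.71 and 3.50, Col1a2 at 2.36 and 3.50 and Col1a1 at 2.22 and 3.15, and from 1 to 3 dpi Col1a1 was called with array median scaling (1.12) and normexp with the 75th percentile (1.04), and Cxcl12 in the deposited table. The part of these other cells in the globin and Ahsp results was not tested.

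**Figure D5:**
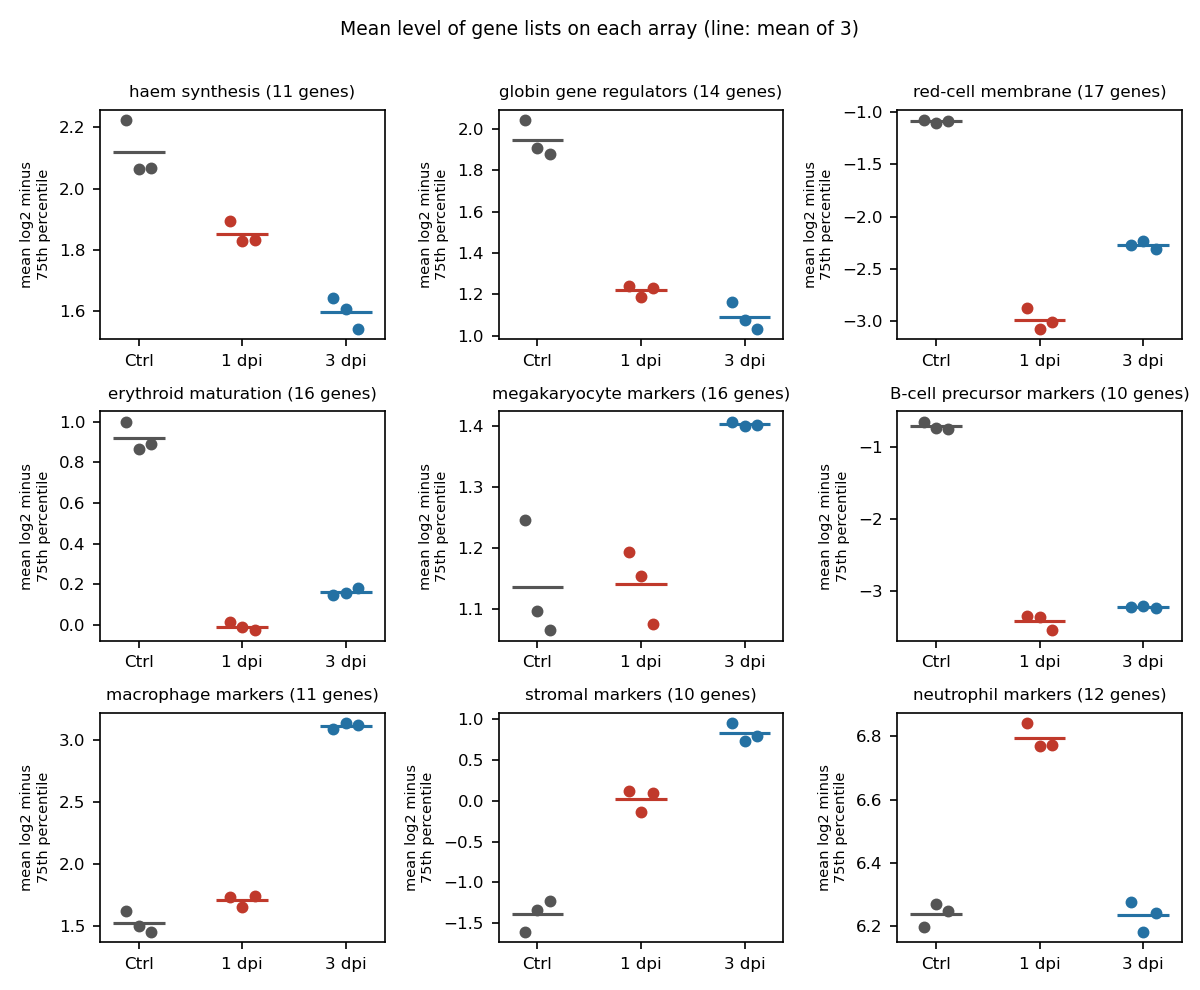
Mean log2 intensity minus the 75th percentile over the tested genes of 9 lists (vertical axis), 1 point for each array, grouped as Ctrl, 1 dpi and 3 dpi. The megakaryocyte list lies at 1.06 to 1.25 in Ctrl and at 1 dpi and is higher, at 1.40 to 1.41, at 3 dpi. The red-cell membrane and B-cell precursor lists are lower at 1 and 3 dpi than in Ctrl, and the macrophage and stromal lists are highest at 3 dpi. The neutrophil list is highest at 1 dpi, where its median change falls below 0 with quantile normalization and the deposited table.

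The arrays lay on 2 slides, with Ctrl replicate 1 alone on slide 1 and the other 8 on slide 2, so that a fit with the slide as a block gives the values within slide 2, without Ctrl replicate 1. At 1 dpi these were 1.44 for Hba-a1, 1.06 for Hbb-b1, 0.73 for Hbb-b2, 0.06 for Hbb-bt and -7.65 for Ahsp. At 3 dpi against Ctrl they were -1.38 for Hba-a1, -1.83 for Hbb-b1, -2.00 for Hbb-b2, -1.75 for Hbb-bt and -2.66 for Ahsp. Hbb-y was not well above background on any Ctrl array, so no value is given for it here. The number of members called was 4, 7 and 7 in the 3 comparisons, beside 3561, 2372 and 2812 of all genes, against 4468, 2587 and 2588 without the block.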

How the data were processed

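RNA of 9 mouse marrow preparations enriched for mature megakaryocytes (Ctrl, 1 dpi and 3 dpi, 3 arrays each) was read on 1-colour Agilent arrays. Per the file headers, Agilent Feature Extraction 10.7.1.1 made the intensity of each spot, and the background-subtracted processed signal was used here. The authors also deposited a log2 table of 27275 gene names with nearly equal quartiles on every array. How it was made is not given in the sources used here, so it served only as an alternative, with 21308 of its names among the genes tested. The published methods name an Affymetrix platform for expression arrays, but the files are Agilent.

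Of 62976 spots, 3671 were controls. Outlier-flagged spots were left out, which removed 20 of 56605 probes, and the spots of a probe were averaged. Probes took gene names through RefSeq annotation of GRCm38.p6 (32994) or kept the array's name (23611). Log2 values minus the 75th percentile of the array were fitted in limma 3.58.1 (R 4.3.3, package data.table, version 1.17.8) with a mean for each group. A probe was kept where some group had all 3 of its arrays well above background, and the brightest stood for its gene. A second fit used all probes kept. Calls needed a Benjamini-Hochberg adjusted p under 0.05 and 2-fold. Within-array differences between genes were compared with exact permutation tests. Sequences and figures used python 3.11.15, pandas 2.3.3 and matplotlib 3.10.9.

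Members and lists were chosen with earlier results of these data known, so no list was tested as a set. All members are named, as are the 5 genes nearest to Ahsp and to the adult beta gene of highest signal, the 3 genes of each list with the largest 1 dpi change, and Gata1, Klf1, Alas2, Slc4a1, Tfrc, Pf4 and Itga2b. Exceptions are marked, and 2 genes that the rule names are not reported here. Alternatives were array median scaling, quantile normalization, normexp (offset 50) with quantile normalization or the 75th percentile, other filters, the mean of a gene's probes, the deposited log2 table, blocks for replicate number and slide, no minimum fold, the methods' t-test, fits of 2 groups, outlier spots kept, and each array left out.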

Additional observations from a re-analysis of the deposited data

Results flagged for a closer look

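These results were picked out because the change against Ctrl at 3 dpi differed from the change at 1 dpi, by the limma contrast of 3 dpi against 1 dpi with a Benjamini-Hochberg adjusted p under 0.05 and at least a 2-fold difference. No group of 3 arrays was searched for outliers. For the alpha genes the 3 dpi change minus the 1 dpi change was -2.82 for Hba-a1 (1.34 at 1 dpi and -1.48 at 3 dpi) and -2.81 for Hba-a2, whose probe overlaps that of Hba-a1. For the adult beta genes it was -2.90 for Hbb-b1 (1.08 and -1.82), -2.73 for Hbb-b2 (0.88 and -1.85) and -1.81 for Hbb-bt (0.08 and -1.72). For Hbb-y it was 3.04, although the gene was not well above background on any Ctrl or 1 dpi array and stayed dim at 3 dpi, through which alone it passed the filter, so only the bounds in the text apply. For Ahsp it was 4.99 (-7.62 and -2.63), opposite in sign to the adult globin genes. What lies behind these differences was not tested.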

How the results depend on the processing

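The changes of genes were recomputed in 25 settings, most with 1 choice changed at a time (normexp with quantile normalization changes 2), among them each array left out in turn. The changes of Ahsp relative to globin genes had 18 settings and those relative to Hbb-bt had 4. The falls of Hba-a1, Hba-a2, Hbb-b1, Hbb-b2 and Hbb-bt at 3 dpi, against Ctrl and against 1 dpi, and the changes of Ahsp in the 3 comparisons kept direction and call in all 25 settings. Ranges were -1.64 to -1.38 for Hba-a1, -1.94 to -1.66 for Hbb-b1, -2.00 to -1.73 for Hbb-b2 and -1.89 to -1.67 for Hbb-bt at 3 dpi against Ctrl. Ahsp ran from -7.93 to -5.44 at 1 dpi and from 2.90 to 5.27 between the times. The 1 dpi rises of Hba-a1 (0.69 to 1.44) and Hbb-b1 (0.76 to 1.14) kept their direction, and each was called in 22 of 25. With arrays left out in turn, the members called were 3 to 5, 7 and 7 in the 3 comparisons, the genes called 3561 to 5367, 2347 to 2768 and 2264 to 2812, and the probes called 5283 to 7563, 3421 to 3962 and 3456 to 4154.

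Counts of calls moved by over 1.5 times in these settings, and the cause was not tested. With normexp and quantile normalization, 1667, 1147 and 1088 genes and 2182, 1455 and 1410 probes were called, beside 4468, 2587 and 2588 genes and 6467, 3739 and 3891 probes in the reported fit, and 2 members were called at 1 dpi against Ctrl in place of 4. With normexp and the 75th percentile, 2444, 1294 and 1350 genes and 3279, 1654 and 1858 probes were called. Without a minimum fold, which lets in smaller changes, the counts were 16443, 9416 and 13125 genes and 24733, 14563 and 20438 probes. With no filter on dim probes 4489 genes and 6931 probes were called at 3 dpi against 1 dpi, and with probes well above background on all 9 arrays, which tests fewer, 2359 probes at 3 dpi against Ctrl.

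Among the members and the genes named by rule, in the 1 dpi comparison with Ctrl the sign turned with array median scaling for Hbb-bt (-0.23), Pf4 (-0.22), Slc15a2 (-0.21), Robo3 (-0.11) and Spag6 (-0.26). With quantile normalization it turned for Hbb-bt (-0.23), Pf4 (-0.34), Mpo (-9e-04), Ngb (-0.0013) and Spag6 (-0.30). With normexp and quantile normalization it turned for Hbb-bt (-0.21), Pf4 (-0.32) and Spag6 (-0.16). With normexp and the 75th percentile it turned for Hbb-y (0.66) and Gdap6 (0.38). With the deposited log2 table it turned for Hbb-bt (-0.23), Pf4 (-0.34), Mpo (-0.19), Adgb (-0.46) and Ngb (-2e-04). With the slide as a fixed block it turned for Dusp2 (0.019). With the slide as a random block it turned for Dusp2 (0.0031). With arrays left out in turn the sign turned for Hbb-bt (-0.036 to 0.17) and Dusp2 (-0.070 to 0.019).

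In the 3 dpi comparison with Ctrl the sign turned with array median scaling for Hbb-bh1 (-0.0049), Gp1ba (-0.069), Pf4 (-0.12), S100a9 (-0.024), Aurkb (-0.12) and Ccnb2 (-0.10). With quantile normalization it turned for Hbb-bh1 (-0.056), Pf4 (-0.076), Aurkb (-0.0087) and Ccnb2 (-0.10). With normexp and quantile normalization it turned for Hbb-bh1 (-0.034), Pf4 (-0.076), Aurkb (-0.017) and Ccnb2 (-0.10). With normexp and the 75th percentile it turned for Mpo (0.013) and Aurkb (-1e-04). With the mean of the probes it turned for Aurkb (-0.0015). With the deposited log2 table it turned for Pf4 (-0.076), Aurkb (-1e-04) and Ccnb2 (-0.10). With the slide as a fixed block it turned for Hbb-bh1 (-0.16), Mpo (0.015), Gm19783 (-0.30) and the position-named transcript (-0.054). With the slide as a random block it turned for Hbb-bh1 (-0.076), Mpo (0.0091) and Gm19783 (-0.14). With arrays left out in turn the sign turned for Hbb-bh1 (-0.16 to 0.32), Gp1ba (-0.017 to 0.16), Itga2b (-0.067 to 0.024), Mpo (-0.065 to 0.033), Aurkb (-0.052 to 0.097), Ccnb2 (-0.042 to 0.14), Gm19783 (-0.30 to 0.80) and the position-named transcript (-0.054 to 1.17).

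From 1 to 3 dpi the sign turned with array median scaling for Gata1 (0.066), Pf4 (0.10) and Adgb (0.19). With quantile normalization it turned for Pf4 (0.26) and Adgb (0.24). With normexp and quantile normalization it turned for Pf4 (0.24) and Adgb (0.11). With normexp and the 75th percentile it turned for Hbb-y (-0.079), Trim10 (-0.47), Sox6 (-0.22), Gata1 (0.031), Pf4 (0.0092), Ngb (-0.74) and Epb42 (-0.66). With the mean of the probes it turned for Sox6 (-0.44) and Adgb (0.22). With the deposited log2 table it turned for Pf4 (0.26) and Adgb (0.84). With arrays left out in turn the sign turned for Hmox1 (-0.48 to 0.019) and Adgb (-0.13 to 0.19).

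Where the sign turned the cause was not tested, and most of these changes were near 0 and called in neither fit. Among these genes the exceptions are Hbb-y and Epb42 from 1 to 3 dpi, called in the reported fit. Of list genes outside the rule, called changes also turned sign, among them Dmtn and Hemgn (1 dpi against Ctrl and 3 dpi against 1 dpi) and Ank1 (3 dpi against Ctrl) in the deposited table, Sptb and Rag1 (1 dpi against Ctrl) and Rhag (3 dpi against 1 dpi) with normexp and the 75th percentile, and Rag1 (3 dpi against 1 dpi) with normexp and quantile normalization. Hbb-y, Epb42, Kel, Trim10, Ngb, Gm19783 and the position-named transcript had no value with probes well above background on all 9 arrays, and the position-named transcript had none in the deposited log2 table. The changes of the adult globin genes relative to Hbb-bt were added after the data were seen, and of these the signs of Hbb-b1 minus Hbb-bt and Hbb-b2 minus Hbb-bt at 3 dpi against Ctrl turned with quantile normalization and the deposited table (0.10 and 0.04 in both).

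The labels give each group replicates 1 to 3, and a fit with the replicate number as a block called 4273, 2498 and 2494 genes, 6220, 3627 and 3773 probes, and 4, 7 and 7 members. Same-numbered arrays of the groups compared had deviations correlated at -0.11 to -0.04, -0.08 to 0.09 and 0.02 to 0.13, and 0, 2 and 2 of 3 arrays correlated best with their own number. Since not every pair was correlated above 0.1 the numbers were not taken to pair the arrays. The block changed no call of a named gene.

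The limits are those of 9 arrays. Dim probes set a floor, and values there are bounds only and depend on how background is subtracted. This holds for Hbb-y and Ngb in Ctrl and at 1 dpi and for Rag1 at 1 and 3 dpi. It also holds at 1 dpi for Kel, Epb42, Trim10, Gm19783 and the position-named transcript. Ahsp was well above background at 1 dpi but dim, at intensities of 12.6 to 20.7. The size of its change there, -7.93 to -5.44 over the settings, therefore depends on the background step. Its differences from the globin genes at 1 dpi rest on the same dim values. Adult globin probes partly share targets, so Hbb-b1, Hbb-b2 and the alpha genes are not fully separate. Ctrl replicate 1 is alone on its slide, so slide and array cannot be told apart there. The 1 dpi arrays were dimmer, and the direction of small changes at 1 dpi depends on the scaling. Without scaling, Hbb-b1, Hbb-b2 and the second Hba-a1 probe overlapped between Ctrl and 1 dpi. RNA of whole preparations was measured, and cell numbers were not.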
